A study of Mus musculus with 6 samples.

Results

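Mitosis and G2/M genes are the genes whose products carry a cell from the end of DNA replication through chromosome segregation and cytokinesis. The 54 genes described here were chosen by gene name for their textbook roles, with no threshold on their values but with earlier results of these data known. Each was matched to 1 of the 55401 gene identifiers in the expression table. They comprise 12 mitotic entry kinases, cyclins and regulators, 9 genes of the spindle checkpoint and of the anaphase-promoting complex with securin and separase, 4 subunits of the chromosomal passenger complex, 7 centromere and kinetochore genes, 12 kinesins and spindle proteins, 3 cytokinesis genes and 7 genes of chromosome structure together with the proliferation marker Mki67. The cells were adult mouse neural retinal progenitor cells (mNRPCs), a culture established in the laboratory of the study and grown with bFGF and the GSK3 inhibitor CHIR99021. In 3 libraries they were lipofected with an siRNA directed at Ifitm3. The other 3 libraries are called control siRNA here. Their titles say only Control, and the study used blank and scramble controls, so which of these was sequenced is not known. Polyadenylated RNA was sequenced 48 h after transfection. Nothing in the labels says that the 3 libraries of a group came from separate cultures, so the p-values reflect the variation from library to library alone, part of which may be technical. Strain, age and passage of the cells are not given in the sources used here.

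As background, entry into mitosis is driven by the kinase CDK1 bound to cyclin B, which is switched on by CDC25 phosphatases and supported by PLK1 and Aurora A. The spindle checkpoint proteins hold CDC20 until every chromosome is attached. The anaphase-promoting complex with CDC20 then destroys securin and cyclin B, so that separase can cut cohesin. Most of these genes are transcribed in waves, late in the cell cycle, by the MuvB core with B-MYB and FOXM1, which acts through an element called the cell cycle homology region, and by NF-Y, which binds CCAAT boxes. Their mRNA is therefore widely used as a measure of how many cells of a population are cycling. In bulk RNA, fewer cells in mitosis and less RNA per cell cannot be told apart.

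Most promoters of these genes carried the letters of both elements. Sequences of 300 bases, from 250 bases before to 50 bases after the annotated start, were taken from RefSeq (GRCm38.p6) for 45 of the 54 genes, with 49 promoters among them. The core of the cell cycle homology region, TTTGAA on either strand, was present in 35 of the 49 promoters (71.4%), against 17.9% of all 32851 promoters of the same length. CCAAT on either strand was present in 38 (77.6%), against 37.4% of all promoters. Both motifs occurred together in 31 promoters (63.3%), against 6.95% of all promoters and 4.93% of the 11843 promoters of genes tested below. The 2 motifs can share at most 1 base, and a match is a description of letters and not evidence of binding. Aurkb, Ccna2, Cdc25c, Foxm1, Incenp, Kif20a, Smc4, Spc24 and Tpx2 were not matched to a promoter.

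The 120 bases before the start are shown, 5′ to 3′ in the direction of the gene, for 6 members described below. They include the kinase of mitotic entry and its B cyclins, and the APC/C activator with the lowest ratio of means. The others are the CDK-binding subunit and the kinesin whose groups did not overlap. None of the 6 passed the test. Capitals mark TTTGAA and CCAAT or their reverse complements, TTCAAA and ATTGG.
Cdk1 (chr10:69352913-69353032, minus strand): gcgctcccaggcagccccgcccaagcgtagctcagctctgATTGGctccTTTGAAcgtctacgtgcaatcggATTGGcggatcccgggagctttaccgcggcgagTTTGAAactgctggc
Cks1b (chr3:89418292-89418411, minus strand): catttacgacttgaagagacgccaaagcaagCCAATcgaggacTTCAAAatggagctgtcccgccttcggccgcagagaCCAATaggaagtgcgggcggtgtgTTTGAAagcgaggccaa
Cdc20 (chr4:118437344-118437463, minus strand): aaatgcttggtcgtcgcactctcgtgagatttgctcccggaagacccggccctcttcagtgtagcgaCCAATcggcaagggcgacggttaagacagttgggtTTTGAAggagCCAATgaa
Ccnb2 (chr9:70421555-70421674, minus strand): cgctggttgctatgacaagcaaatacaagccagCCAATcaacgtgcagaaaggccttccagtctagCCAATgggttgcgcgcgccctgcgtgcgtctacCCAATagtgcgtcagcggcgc
Ccnb1 (chr13:100786487-100786606, minus strand): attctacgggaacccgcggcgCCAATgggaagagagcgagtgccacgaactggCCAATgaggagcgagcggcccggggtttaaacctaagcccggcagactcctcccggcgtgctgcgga
Kif18a (chr2:109280618-109280737, plus strand): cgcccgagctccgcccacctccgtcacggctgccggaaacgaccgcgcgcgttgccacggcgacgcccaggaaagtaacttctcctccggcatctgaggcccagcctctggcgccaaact
Cdk1 and Cks1b each held 2 copies of each motif in this stretch. Cdc20 had its TTTGAA between a pair of CCAAT boxes. The stretch of Ccnb2 held 3 CCAAT boxes and that of Ccnb1 held 2, both without TTTGAA. Ccnb2 had 2 matches to TTTGAA elsewhere in its 300 bases, and Ccnb1 had none there. Other spellings of the element were not searched, so a missing match does not show that the element is absent. Neither motif was found in the 300 bases of Kif18a.

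**Figure D1:**
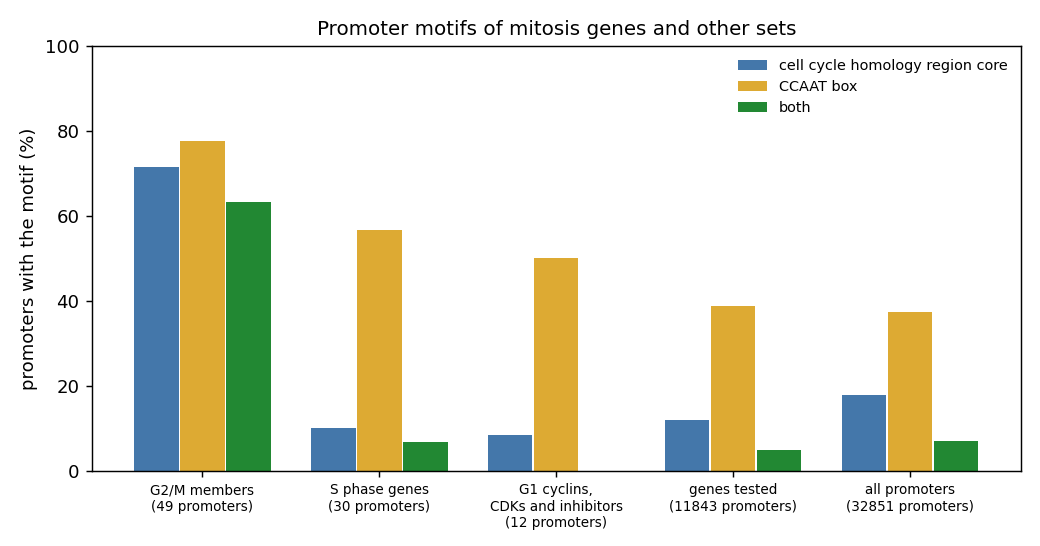
Share of promoters of 300 bases (y axis, %) that hold the core of the cell cycle homology region (blue), a CCAAT box (yellow) or both (green), for the mitosis and G2/M genes, S phase genes, G1 genes, genes tested and all promoters (x axis, with the number of promoters). Both motifs stood together in 63.3% of the mitosis promoters and in 6.67% of the S phase promoters.

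In other cell cycle lists the TTTGAA core was present in 3 of 30 promoters of S phase genes and in 1 of 12 promoters of G1 cyclins, CDKs and inhibitors. Centromere and kinetochore genes outside the 54 had it in 32.4% of promoters, and further spindle and centrosome genes in 42.4%. A CCAAT box was present in 56.7% of the S phase promoters. It was also present in 73.5% of the promoters of the centromere and kinetochore genes outside the 54. In the further spindle and centrosome genes the share was 60.6%. Both motifs together were present in 23.5% and 30.3% of the promoters of these 2 lists.

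All 54 genes were expressed in mNRPCs, over a wide range of levels. Expression is given in FPKM, a unit inferred from the processing tools. FPKM is a fragment count scaled by transcript length and sequencing depth, so that levels of genes of different length can be set side by side. In the control siRNA libraries the mean level ran from 3.16 FPKM for Kif18a to 175.9 FPKM for Cks1b, with a median over the genes of 26.3 FPKM. Of the 54 genes, 6 were among the 500 highest of all genes by control mean and 11 among the 1000 highest. The 6 were Cks1b and Cks2, the small subunits that bind CDKs, the cyclins Ccna2 and Ccnb2, the kinase Plk1 and the APC/C activator Cdc20. At the other end stood Kif18a, a kinesin that acts at the ends of kinetochore microtubules, and the protease separase (Espl1, 5.74 FPKM).

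Subunits of the same complex stood at similar levels in some complexes and not in others. The 4 subunits of the chromosomal passenger complex had control means of 21.6 FPKM for Cdca8 (borealin), 25.9 FPKM for Aurkb (the kinase), 27.4 FPKM for Birc5 (survivin) and 30.6 FPKM for Incenp (the scaffold). The NDC80 complex, which joins kinetochores to microtubules, had 13.7 FPKM for Nuf2 and 13.4 FPKM for Spc25 but 8.42 FPKM for Ndc80 and 7.55 FPKM for Spc24. The condensin subunits, which compact chromosomes, ranged from 12.6 FPKM for Ncapg to 53.8 FPKM for Smc4.

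The targeted gene was lower in every knockdown library. Ifitm3, an interferon-induced transmembrane protein gene (ENSMUSG00000025492), was at 3121, 2120 and 2509 FPKM in the control libraries and at 349.7, 546.4 and 398.5 FPKM in the Ifitm3 siRNA libraries. The knockdown mean was 16.7% of the control mean. The log2 fold change was -2.59 with an SE of 0.23, and its adjusted p was 0.1001 by limma with Benjamini-Hochberg adjustment over all genes tested. An exact two-sided permutation test gave p = 0.1, the smallest value that 3 against 3 libraries allow.

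Against this, the 54 mitosis and G2/M genes stood close to their control levels. All 54 averaged 0.5 FPKM or more, the filter on low values, and were tested by limma on log2(FPKM + 0.1) among 13588 genes. Their log2 fold changes, Ifitm3 siRNA minus control siRNA, were above 0 for 29 genes and below 0 for 25, and the median was 0.018 against 0.045 over all genes tested. With median-ratio scaling of the libraries the split was 21 above and 33 below, with a median of -0.025 against 0.0027 over all genes, and with quantile normalization it was 29 and 25, with a median of 0.019 against -0.00038. The split also moved with single libraries. Without Ifitm3 siRNA replicate 2, 19 of the 54 were above 0, with a median of -0.025 against 0.045 over all genes. Without control replicate 3, 20 were above 0 (median -0.021). Without control replicate 1, 32 were above 0, with a median of 0.052 against 0.049. The knockdown mean of a gene lay between 73.5% (Cdc20) and 116.7% (Espl1) of its control mean. Summed over the 54 genes, expression was 1971 ± 133 FPKM in the control libraries and 1881 ± 81.7 FPKM in the Ifitm3 siRNA libraries (SD, n = 3 each). The ratio of the means was 95.5%, and the difference was smaller than the SD of the control libraries. The highest genes weigh most in this sum. Of the 6 highest, Cdc20 (73.5% of its control mean), Ccnb2 (78.3%), Ccna2 (83.3%), Cks1b (83.5%) and Plk1 (97.0%) were lower. Cks2 (106.8%) was higher.

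In limma with Benjamini-Hochberg adjustment, none of the 54 members reached an adjusted p under 0.05, where 0.00736% of all genes tested did, and the smallest adjusted p of a member was 0.535. At an unadjusted p under 0.05, 0 of the 54 were higher, where 5.32% of all genes tested were, and 1 (1.85%) was lower, where 3.37% of all genes tested were. That gene was Spc24. At the thresholds in the methods of the study, a log2 fold change beyond 1 with an unadjusted p under 0.05, no member was found in either direction (background 0.927% higher and 0.5% lower). Counted by groups that did not overlap, 2 members (3.70%) were higher in all Ifitm3 siRNA libraries, against 9.96% of all genes tested, and 3 (5.56%) were lower, against 5.69%. Each of these shares was near or below its background.

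The intervals show how large a difference these libraries leave room for. The 95% confidence interval of the log2 fold change, taken gene by gene with no adjustment, lay between -1 and 1 for all 54 genes, so that a 2-fold difference was outside each of them. For 42 of the 54 (77.8%) it also lay within 1.5-fold in both directions, against 36.6% of all genes tested and 49.2% of the 8715 genes tested whose control mean was in the range of the members. The 12 genes whose interval went beyond 1.5-fold were Spc24, Ccnb2, Aurkb, Cdc20, Cks1b, Ccna2, Cenpf, Mki67 and Cenpe on the lower side, and Espl1, Kif20a and Cdc25c on the higher side.

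**Figure D2:**
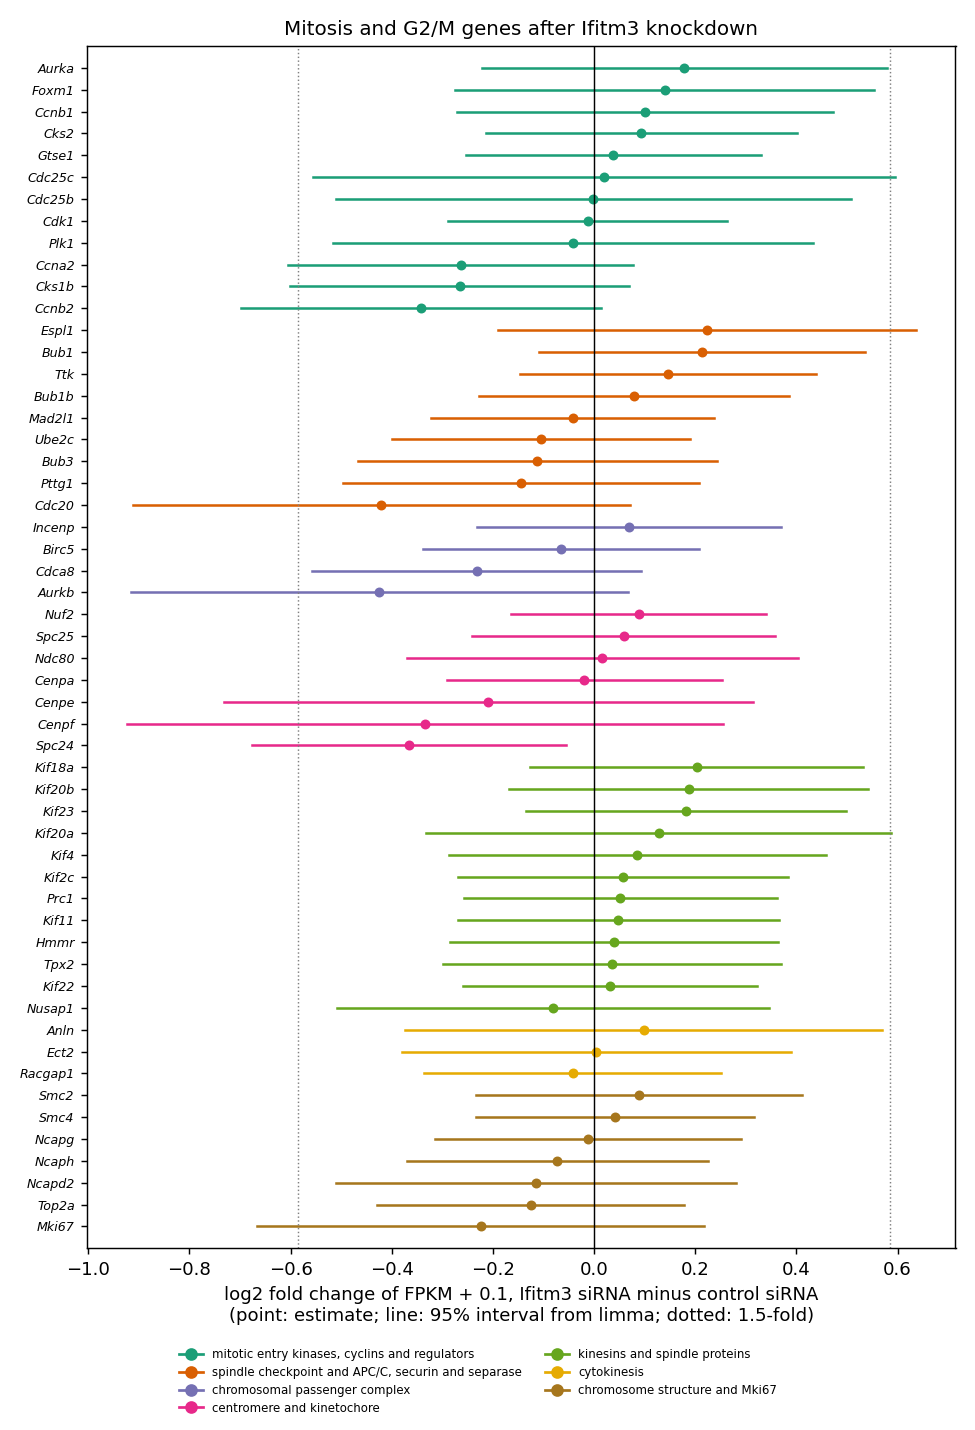
Log2 fold change of FPKM + 0.1 (x axis, Ifitm3 siRNA minus control siRNA) of each of the 54 genes (y axis), coloured by role, with the point as the estimate and the line as the 95% interval from limma, and dotted lines at 1.5-fold. Only the interval of Spc24 (-0.68 to -0.056) leaves out 0, and the estimates lie between -0.42 and 0.22.

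Among the 12 regulators of mitotic entry, 6 were above 0 and 6 below. Cdk1, the kinase of mitotic entry (ENSMUSG00000019942), was at 35.4, 38.4 and 33.8 FPKM in the control libraries and at 34.1, 38.4 and 34.2 FPKM in the Ifitm3 siRNA libraries. The 2 groups thus covered the same range, and the log2 fold change was -0.013 (95% interval -0.29 to 0.26). Its partner cyclin B1 (Ccnb1) was at 48.5, 34.7 and 46.8 FPKM in the control libraries and at 48, 44.2 and 45.8 FPKM after the knockdown, with the control replicate 2 library below the 5 others. The log2 fold change of Ccnb1 was 0.10 (SE 0.16).

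Cyclin B2 and cyclin A2 had lower means after the knockdown, without a member of this role passing the test. Ccnb2 (ENSMUSG00000032218) was at 110.2, 81.5 and 104.0 FPKM in the control libraries and at 73.8, 81.8 and 75.8 FPKM in the Ifitm3 siRNA libraries. Control replicate 2 lay within the range of the knockdown libraries, and the other 2 control libraries lay above it. The log2 fold change of Ccnb2 was -0.34 (SE 0.15), with an unadjusted p of 0.0567 and an adjusted p of 0.586 in limma with Benjamini-Hochberg adjustment. Ccna2, the cyclin of S phase and G2, was at 111.4, 89.0 and 99.8 FPKM against 93.9, 78.3 and 77.7 FPKM, so that the groups overlapped by 1 library each, and its log2 fold change was -0.26 (SE 0.14). The difference between the 2 B cyclins was not tested.

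The CDK-binding subunits had estimates of opposite sign. Cks1b was at 163.6, 181.1 and 183.1 FPKM in the control libraries and at 155.0, 159.6 and 126.2 FPKM in the Ifitm3 siRNA libraries. The groups did not overlap, but the gap between them was narrower than the range within either group, and the log2 fold change was -0.27 (SE 0.14, unadjusted p = 0.101 by limma). Cks2 was at 128.7, 112.2 and 126.6 FPKM against 122.2, 144.6 and 125.7 FPKM, with a log2 fold change of 0.093 (SE 0.13). Plk1, which promotes entry, spindle assembly and cytokinesis, was at 117.7, 80.0 and 101.2 FPKM against 105.4, 77.6 and 106.8 FPKM. In Plk1 both replicate 2 libraries lay below the 4 others, and the log2 fold change was -0.042 (SE 0.20). Foxm1, the transcription factor of many G2/M genes, was at 26.5, 25.1 and 22.4 FPKM in the control libraries and at 32.6, 21.7 and 28.2 FPKM in the knockdown libraries. Its log2 fold change was 0.14 (SE 0.17), and the lowest and the highest of its 6 values were both in the knockdown group. The other 4 genes of this role, the kinase Aurka, the phosphatases Cdc25b and Cdc25c and the microtubule-binding Gtse1, had log2 fold changes between -0.0017 (Cdc25b) and 0.18 (Aurka), each smaller than 2 SE.

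In the checkpoint and anaphase group, 4 genes were above 0 and 5 below. Cdc20, the activator of the anaphase-promoting complex (ENSMUSG00000006398), was at 121.6, 75.1 and 108.5 FPKM in the control libraries and at 85.4, 68.3 and 70.8 FPKM in the Ifitm3 siRNA libraries. As in Ccnb2, control replicate 2 was at the level of the knockdown libraries while the other 2 control libraries were above all of them. The knockdown mean of Cdc20 was 73.5% of the control mean, and the log2 fold change of -0.42 (SE 0.21) had an unadjusted p of 0.0823 by limma. The checkpoint kinase gene Ttk (MPS1) was at 9.71, 8.18 and 9.51 FPKM against 9.79, 10.7 and 9.78 FPKM, so that the groups did not overlap, but the nearest values were 9.71 and 9.78 FPKM and the log2 fold change was 0.15 (SE 0.12). The other members of the group were Ube2c, the ubiquitin-conjugating enzyme of the complex (-0.10), the checkpoint proteins Bub1 (0.21), Bub1b (0.079), Bub3 (-0.11) and Mad2l1 (-0.043), securin (Pttg1, -0.15) and separase (Espl1, 0.22), all as log2 fold changes and each smaller than 2 SE. Securin and the separase that it inhibits thus had estimates of opposite sign, and neither passed the test.

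Of the 4 chromosomal passenger genes, 3 were below 0. Aurkb, the kinase that corrects faulty attachments (ENSMUSG00000020897), was at 29.1, 22.8 and 25.6 FPKM in the control libraries and at 22.0, 14.3 and 22.4 FPKM in the Ifitm3 siRNA libraries. The groups did not overlap, with Ifitm3 siRNA replicate 2 far below the others and the nearest libraries of the groups at 22.4 and 22.8 FPKM. The log2 fold change of Aurkb was -0.42 (SE 0.21), the most negative of the 54 genes, with an unadjusted p of 0.0798 and an adjusted p of 0.601 in limma with Benjamini-Hochberg adjustment. Without Ifitm3 siRNA replicate 2 it was -0.21, and Spc24 (-0.40) was then more negative. Its partners Cdca8, Birc5 and Incenp had log2 fold changes of -0.23, -0.065 and 0.070, each smaller than 2 SE. All 4 genes of the complex had their lowest value in Ifitm3 siRNA replicate 2.

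Spc24, a subunit of the NDC80 complex (ENSMUSG00000074476), was the member with the smallest p. It was at 8.33, 7.63 and 6.68 FPKM in the control libraries and at 5.69, 6.12 and 5.63 FPKM in the Ifitm3 siRNA libraries, 7.55 ± 0.828 against 5.81 ± 0.267 FPKM (SD, n = 3 each). Every control library was above every knockdown library. The log2 fold change was -0.37 (SE 0.13, 95% interval -0.68 to -0.056), with an unadjusted p of 0.0271 and an adjusted p of 0.535 in limma with Benjamini-Hochberg adjustment. The call at the unadjusted threshold was lost when control replicate 1 (log2 fold change -0.29), control replicate 2 (-0.36), Ifitm3 siRNA replicate 1 (-0.35), Ifitm3 siRNA replicate 3 (-0.34) or both replicate 2 libraries (-0.39) were left out. The 3 other subunits of the same complex had log2 fold changes of 0.088 (Nuf2), 0.059 (Spc25) and 0.017 (Ndc80). Cenpa, the histone variant of centromeres, stood at -0.019, and the large kinetochore proteins Cenpe and Cenpf stood at -0.21 (SE 0.22) and -0.33 (SE 0.25).

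Of the 12 kinesins and spindle proteins 11 were above 0, but their median of 0.055 was close to the 0.045 of all genes tested, and with median-ratio scaling 8 of 12 were above 0 with a median of 0.012 against 0.0027. With quantile normalization 11 of 12 were above 0, with a median of 0.070 against -0.00038. None passed the test. Kif18a was at 3.21, 3.13 and 3.14 FPKM in the control libraries and at 3.51, 4.15 and 3.34 FPKM in the Ifitm3 siRNA libraries. The control values were tightly grouped and did not overlap with the knockdown values, and the log2 fold change of Kif18a was 0.20 (SE 0.14, unadjusted p = 0.188 by limma). The next estimates were those of Kif20b (0.19) and Kif23 (0.18), kinesins of the midzone and midbody, and of Kif20a (0.13). Kif4, Kif2c, Kif11 (the motor that separates the spindle poles), Kif22, the spindle assembly factor Tpx2, the bundling protein Prc1 and the spindle and hyaluronan-binding protein Hmmr were between 0.032 and 0.085, and Nusap1 stood at -0.081. Of the 12, 9 had their highest value in Ifitm3 siRNA replicate 2, among them Kif20a with 65.8 FPKM there and between 42.6 and 55.0 FPKM in the 5 other libraries.

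The cytokinesis genes, Anln (anillin), Ect2 and Racgap1, had log2 fold changes of 0.098, 0.0047 and -0.043. Anln was at 34.0, 46.1 and 35.0 FPKM against 40.6, 50.1 and 33.1 FPKM, with both replicate 2 libraries above the 4 others.

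Of the 7 genes of chromosome structure and Mki67, 5 were below 0. Mki67, which coats mitotic chromosomes and is the usual marker of proliferating cells (ENSMUSG00000031004), was at 53.5, 36.0 and 49.2 FPKM in the control libraries and at 45.1, 36.0 and 36.6 FPKM in the Ifitm3 siRNA libraries. Both replicate 2 libraries were at the bottom of the range, the groups overlapped, and the log2 fold change of Mki67 was -0.22 (SE 0.19, unadjusted p = 0.267 by limma). Top2a, the topoisomerase that untangles sister chromatids (ENSMUSG00000020914), was at 75.4, 77.1 and 64.9 FPKM against 62.5, 72.3 and 64.4 FPKM, with a log2 fold change of -0.13 (SE 0.13). The condensin genes Smc2, Smc4, Ncapd2, Ncapg and Ncaph lay between -0.11 and 0.089, each smaller than 2 SE.

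**Figure D3:**
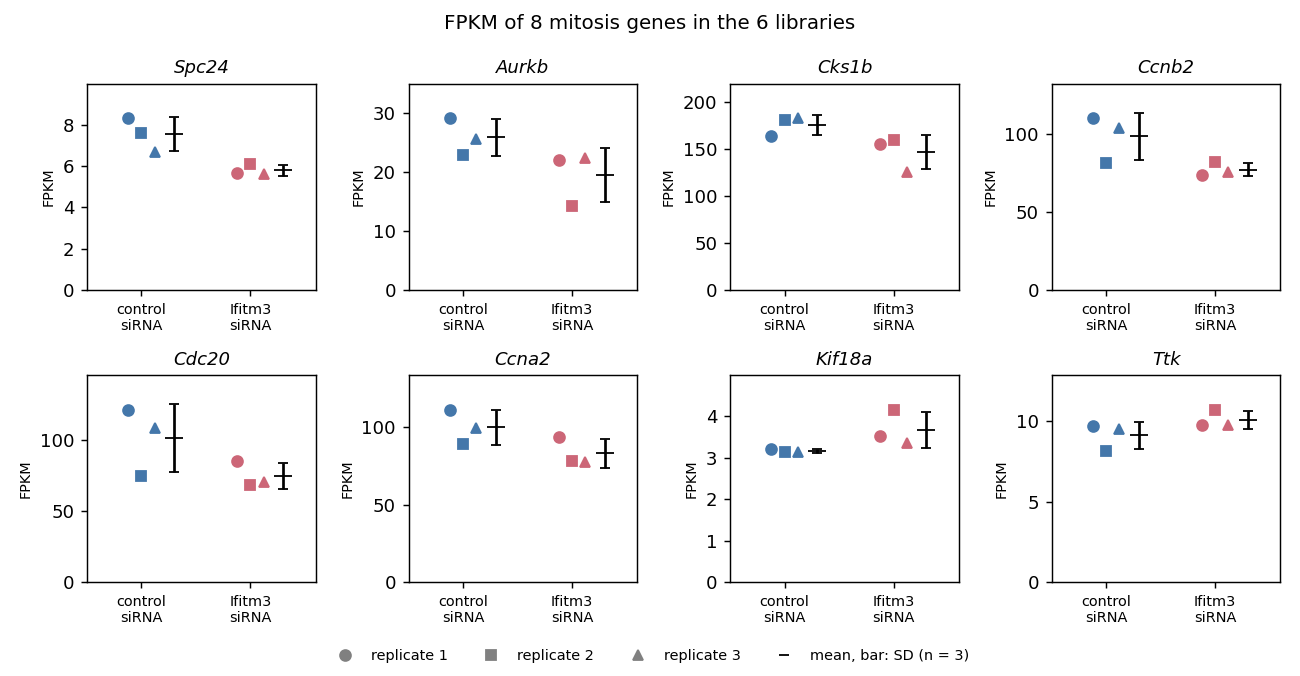
FPKM (y axis, from 0) in each of the 6 libraries for 8 mitosis genes, with control siRNA in blue, Ifitm3 siRNA in red, a symbol per replicate number, and the mean with the SD (n = 3) in black. Spc24, Aurkb and Cks1b have all knockdown libraries below all control libraries, Kif18a and Ttk have them above, and in Ccnb2 and Cdc20 control replicate 2 sits among the knockdown libraries.

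In summed expression of these genes the control libraries differed among themselves by more than the group means did. Control replicate 1 held the highest value of 20 of the 54 genes (37.0%, against 16.3% of all genes tested) and the lowest of none (against 16.7%). Its summed expression of the 54 genes was 2111 FPKM, where control replicates 2 and 3 had 1847 and 1953 FPKM and the Ifitm3 siRNA libraries had 1906, 1948 and 1790 FPKM. Ifitm3 siRNA replicate 2 held the highest value of another 20 genes (37.0%, against 24.8% of all genes tested) and the lowest of 13 (24.1%, against 20.6%). Without control replicate 1, no member was called at an unadjusted p under 0.05 by limma. Without control replicate 2, Ccnb2 (log2 fold change -0.47), Cdc20 (-0.62) and Mki67 (-0.39) were called lower and Spc24 was not. Without Ifitm3 siRNA replicate 3 no member was called, and without Ifitm3 siRNA replicate 1 the 1 member called was Cenpf in place of Spc24.

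Both replicate 2 libraries stood apart from the 4 others in part of these genes. They were both above the 4 others in 7 genes (13.0%, against 13.2% of all genes tested), which were Cdk1, Bub3, Ndc80, Spc25, Prc1, Anln and Ect2. They were both below in 8 genes (14.8%, against 17.7%), which were Ccnb1, Cdc25b, Plk1, Mad2l1, Espl1, Birc5, Ncapd2 and Mki67. Without these 2 libraries, 15 of the 54 genes were above 0 with a median log2 fold change of -0.054, against 0.032 over all genes tested, and the members called lower at an unadjusted p under 0.05 were Ccnb2 (-0.52) and Cdc20 (-0.56). The Notch target Hes1 was at 30.1 and 29.6 FPKM in the replicate 2 libraries and at most at 9.85 FPKM in the others, and its part in these values was not tested.

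**Figure D4:**
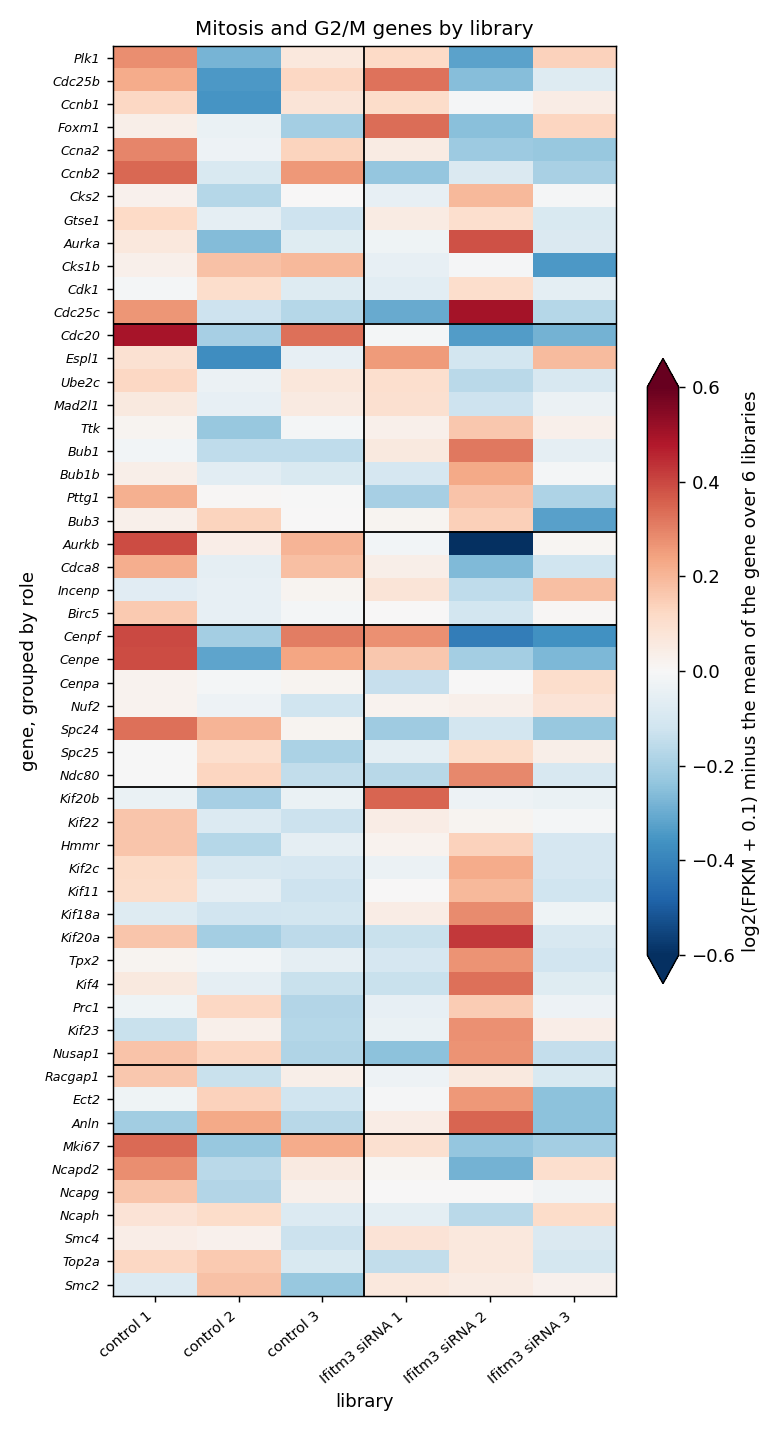
Log2(FPKM + 0.1) of each of the 54 genes (y axis, grouped by role) in each library (x axis) minus the mean of that gene over the 6 libraries, in red where higher and in blue where lower, with colours saturated at 0.6. The column of control replicate 1 is the highest of the 6 for 20 genes and the lowest for none, and 9 of the 12 kinesins and spindle proteins are highest in Ifitm3 siRNA replicate 2.

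Genes around this set in the cell cycle were read from 8 further lists with 178 genes, also chosen with earlier results of these data known. All 178 were tested. At an unadjusted p under 0.05 in limma, 5 were higher (2.81%, against 5.32% of all genes tested) and 6 lower (3.37%, against 3.37%), and none passed the adjusted threshold. With 1 library left out, between 3 (without control replicate 3 or Ifitm3 siRNA replicate 2) and 6 were higher, and between 1 (without control replicate 1 or Ifitm3 siRNA replicate 3) and 8 were lower. Of the 11 genes, Zwint, Cdkn1a and Ccnd3 passed that threshold whichever single library was left out. Without both replicate 2 libraries, Zwint and Cdkn1a still passed it, and Ccnd3 (log2 fold change -1.15) did not. Without control replicate 1 the log2 fold change of Cdkn1a was 0.70, against 1.01 with all libraries. Zwint, which anchors checkpoint proteins at the kinetochore, was the clearest of them, at 44.3, 43.6 and 50.1 FPKM in the control libraries and at 68.9, 64.8 and 74.3 FPKM in the Ifitm3 siRNA libraries. The gap between the groups was larger than the range within either group, and the log2 fold change was 0.59 (SE 0.12), with an unadjusted p of 0.00186 and an adjusted p of 0.363 in limma with Benjamini-Hochberg adjustment. It was the 1 gene past the unadjusted threshold among the 34 further centromere and kinetochore genes. Among 35 further spindle and centrosome genes, the abscission protein Cep55 (0.69, SE 0.24) and the centriole duplication protein Cep152 (0.51, SE 0.21) were higher and the gamma-tubulin gene Tubg1 (-0.51, SE 0.21) was lower. Without Ifitm3 siRNA replicate 2, Cep55 was at 0.42, Cep152 at 0.33 and Tubg1 at -0.30, and of these only Cep55 still passed the unadjusted threshold. The 17 APC/C subunits and regulators and the 14 genes of cohesin and other condensin subunits had none past that threshold in either direction.

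Of the factors that transcribe G2/M genes, 2 subunits of NF-Y passed the unadjusted threshold in opposite directions. Nfyb was at 5.25, 5.29 and 5.77 FPKM in the control libraries and at 6.98, 9.18 and 6.56 FPKM in the Ifitm3 siRNA libraries, with a log2 fold change of 0.46 (SE 0.16). Nfyc was at 14.6, 12.2 and 14.4 FPKM against 10.3, 11.4 and 9.29 FPKM, with a log2 fold change of -0.41 (SE 0.14). In both genes the groups did not overlap and the unadjusted p was under 0.05, while the adjusted p in limma with Benjamini-Hochberg adjustment was 0.524 for Nfyb and 0.518 for Nfyc. The remaining subunit, Nfya, had a log2 fold change of 0.50 (SE 0.24), with groups that did not overlap, and did not pass that threshold. The other 12 genes of the DREAM, MuvB and NF-Y list did not pass, B-MYB (Mybl2) among them with -0.12 (SE 0.29). The 28 members whose promoters held both motifs had a median log2 fold change of -0.012, with 13 above and 15 below 0, and the 17 with 1 motif or neither had a median of 0.038, with 10 above and 7 below. The 7 members with neither motif had a median of -0.065, with 2 above and 5 below.

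Among 17 genes that hold back G2/M entry or control its phosphatases, Cdkn1a, the CDK inhibitor p21, was the 1 gene past the unadjusted threshold. It was at 3.46, 7.12 and 6.12 FPKM in the control libraries and at 10.5, 9.69 and 12.4 FPKM in the Ifitm3 siRNA libraries, with a log2 fold change of 1.01 (SE 0.27) and an adjusted p of 0.471 by limma. Of 32 S phase genes, 26 were below 0 with a median log2 fold change of -0.10, and 8 (25%, against 5.69% of all genes tested) were lower in all Ifitm3 siRNA libraries. Over all genes tested 5873 of 13588 were below 0, and the median was 0.045. The 3 past the unadjusted threshold (9.38%, against 3.37% of all genes tested), all lower, were the thymidine kinase Tk1 (-0.36), the clamp loader subunit Rfc2 (-0.28) and the ribonucleotide reductase subunit Rrm1 (-0.34). Without both replicate 2 libraries Tk1 was at -0.26, Rfc2 at -0.30 and Rrm1 at -0.23, and none of these passed it. Of 14 G1 genes, cyclin D3 (Ccnd3, -1.45, SE 0.37) was lower at that threshold. The difference between the S phase genes and the mitosis genes was not tested.

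As a check of the cell type, 6 of 9 retinal progenitor markers reached a mean of 0.5 FPKM, with Sox2 between 32.1 and 58.6 FPKM and Pax6 between 8.39 and 13.7 FPKM. The lowest of the 6 averaged 0.51 FPKM, close to that limit. The defining markers Rax and Six6 were listed at 0 in every library. None of the markers of photoreceptors, pigment epithelium, macrophages or endothelium reached 0.5 FPKM. Of 6 Mueller glia and astrocyte markers 2 reached it, and of 5 retinal neuron markers 2 did. Of 5 mesenchymal markers 2 did, with a summed level between 21.8 and 43.0 FPKM in the control libraries and between 12.7 and 26.6 FPKM in the Ifitm3 siRNA libraries. The part of such cells in the values above was not tested. Between 11966 and 12274 genes reached 1 FPKM in a library. The sequencing depth of the libraries is unknown.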

How the data were processed

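Polyadenylated RNA of 6 mouse libraries, 3 per group, was sequenced as paired ends on a NovaSeq. The values deposited by the authors, taken here as FPKM, have 2 decimals for each gene in each library. For their making, the submitters' processing notes list cutadapt 1.9, HISAT2 2.0.4, StringTie 1.3.4d and hg18, a human build. However, 99.5% of the 55401 identifiers are mouse identifiers of GENCODE M21. The annotation used is not named. No column states the unit, which was inferred from these tools. Reads per library are unknown, so no counting error or test on counts was possible.

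From the deposited FPKM, log2(FPKM + 0.1) was computed. Genes averaging 0.5 FPKM or more were kept (13588 genes). A two-sided limma model (version 3.58.1 in R 4.3.3) with condition as its term and a mean-variance trend compared the groups, and p-values were adjusted over all genes kept by the Benjamini-Hochberg method. A pseudocount compresses the fold changes of low genes. The test was checked on simulated data. Alternatives were other pseudocounts (1 and 0.01), filters (none and 1 FPKM), median-ratio and quantile scaling, no trend, a replicate block, and leaving out each library or both replicate 2 libraries. No list was tested as a set.

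The members and lists were chosen with earlier results of these data known. Every library is printed for members with p under 0.1, the 6 highest by mean FPKM, the members of each role with the smallest p and the largest fold change, and Cdk1, Ccnb1, Aurkb, Top2a, Mki67 and Foxm1. Of the other lists, genes with p under 0.05 are named, at most 4 per list. Ttk, Kif20a, Nfya, Mybl2 and Hes1 were singled out after their values were seen. A gene among the cell type markers is not reported here.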

Additional observations from a re-analysis of the deposited data

How the results depend on the processing

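The count of mitosis and G2/M genes lower after the Ifitm3 siRNA at an unadjusted p under 0.05 was 1 in the condition-only model. It was 2 with median-ratio scaling (Ccnb2 and Spc24) and 2 without both replicate 2 libraries (Ccnb2 and Cdc20), and it ranged from 0 to 3 when 1 library was left out. The count of members higher was 0, and no member passed the adjusted threshold, under every alternative tried. Whether the replicate numbers pair the libraries cannot be told. Deviations from the group means correlated at 0.070, 0.43 and 0.035 for replicates 1, 2 and 3 over 13588 genes. The value of replicate 2 was the highest of any pairing, while control replicate 3 correlated best with Ifitm3 siRNA replicate 1 (0.36). Deviations within a group depend on each other, so these correlations are not independent. With the replicate block 3 members were lower (Cdc20, Aurkb and Spc24), and over all genes tested 1001 were higher and 636 lower, against 723 and 458 without it. Over all genes tested the calls split into 544 higher and 602 lower with median-ratio scaling and into 513 and 604 with quantile normalization. In the 8 other cell cycle lists the 6 genes lower became 10 with median-ratio scaling, 10 with the replicate block and 3 without the mean-variance trend. The log2 fold change changed sign in 10 of 225 alternative values of the 15 members selected by the rule for named genes. The other filters, the fit without a trend and the replicate block leave each estimate as it was. Those alternatives are among the 225 but could not change a sign. Cdk1 was at 0.021 with quantile normalization, and without both replicate 2 libraries Cks2 was at -0.043 and Ccnb1 at -0.023. With 1 library left out, Cdk1 ranged from -0.068 to 0.037, Ccnb1 from -0.051 to 0.19, Plk1 from -0.19 to 0.11 and Anln from -0.052 to 0.25. The cause of these shifts was not tested. The depth of the libraries is unknown, so that sampling error cannot be separated from the spread between libraries.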
